A study of Mus musculus with 18 samples.

Results

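The genes described are 9 complement components and regulators, C1ra, C4b, C2, C3, Cfb, Cfd, Serping1, Cd55 and Cfi, taken by symbol from a table of 27131 rows. Each symbol matched 1 row. They were compared between 9 colon libraries from mice labelled Hif2a LFL, which overexpress HIF2 in the colon (HIF2), and 9 from mice labelled Hif2a +/+ (WT), all untreated and on the C57BL/6 strain. The design text spells the altered allele LSL, and the series title places HIF-2α in the epithelium. The sources used here name no promoter or recombinase that drives the allele, and give no age. They do not state that each library came from its own mouse, so the p-values cover the scatter among libraries, which may be technical in part. Libraries are named by group and replicate number, 0 to 8.

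Complement is a cascade of plasma and tissue proteins that marks surfaces for uptake, calls in leukocytes and can open membranes. The classical pathway starts when C1q binds a target, the protease C1r activates the protease C1s, and C1s cleaves C4 and C2. The alternative pathway amplifies C3 cleavage through factor B and factor D. Both meet at C3, and regulators in fluid and on host membranes restrain them. The liver makes most plasma complement, and fibroblasts, macrophages, fat cells and gut epithelium also make components locally.

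HIF-2α, a transcription factor stabilized in low oxygen, is encoded by Epas1, whose level was 22.7 ± 6.36 FPKM in HIF2 and 18.8 ± 3.09 FPKM in WT (SD, n = 9 each), a log2 difference of 0.24 (SE 0.14) that did not pass the test (limma adjusted p = 0.246). FPKM counts fragments per length of transcript and per library size, so levels of different genes can be set side by side. The HIF target gene Egln3 was at 21.8 and 16.7 FPKM in HIF2 replicates 2 and 4, within the WT range of 11.4 to 22.2 FPKM, and at 225 to 549 FPKM in the other 7 HIF2 libraries. Slc11a2, an iron transporter gene and HIF-2 target, was at 1525 to 2101 FPKM in HIF2 replicates 6 to 8. In HIF2 replicates 0, 1, 3 and 5 it was at 229 to 469 FPKM. It also stayed in the WT range, 12.8 to 19 FPKM, in replicates 2 and 4 alone, at 16.5 and 18.2 FPKM. These 2 libraries thus went against their label at both genes, and results are also given without the libraries labelled HIF2 replicates 2 and 4. FPKM sums ran from 686539 to 937505 per library, and absolute read depth is unknown. Colonic epithelium genes were high in every library, summing to 8465 to 15152 FPKM in HIF2 and 12299 to 18294 FPKM in WT, but the libraries differed in RNA of the muscle layer. Smooth muscle genes summed to 79.2 to 3694 FPKM in HIF2 and 35 to 1240 FPKM in WT, with 11 of 12 tested higher in HIF2. HIF2 replicates 6, 7 and 8 held little of this RNA, with list means 0.41, 0.60 and -0.53 from the WT mean on the log2 scale, against 3.21 to 4.24 in the other HIF2 libraries, and WT replicate 3 held much, at 2.90. Fibroblast genes summed to 143 to 1162 FPKM in HIF2 and 40.9 to 288 FPKM in WT, and 11 of 11 tested were higher in HIF2. Of all tested genes, 11% were higher by limma at an adjusted p under 0.05. Xist or Ddx3y RNA split the libraries into 4 and 5 of each genotype. Values without the libraries that stand apart, and within the Xist and Ddx3y sets, follow the main results.

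The start regions of C3 and Cd55 are shown because both genes rose and each holds 1 of the motifs searched. They are the 250 bases before the RefSeq start site on the minus strand of GRCm38.p6, at chr17:57228137-57228386 for C3 and chr1:130462745-130462994 for Cd55, written 5′ to 3′. Capitals mark the motif match.
C3: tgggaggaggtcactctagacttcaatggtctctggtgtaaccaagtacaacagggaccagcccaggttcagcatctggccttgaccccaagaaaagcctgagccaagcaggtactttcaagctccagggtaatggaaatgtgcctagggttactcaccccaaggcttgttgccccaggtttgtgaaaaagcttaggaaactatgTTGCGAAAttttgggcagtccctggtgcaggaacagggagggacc
Cd55: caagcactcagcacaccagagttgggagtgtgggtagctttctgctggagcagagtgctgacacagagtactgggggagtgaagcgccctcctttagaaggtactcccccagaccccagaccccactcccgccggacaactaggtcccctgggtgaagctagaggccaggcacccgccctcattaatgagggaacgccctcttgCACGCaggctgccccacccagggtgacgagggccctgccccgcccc
In C3 the capitals are a C/EBP motif, TTGCNNAA, from 45 to 38 bases before the start, and 9.56% of 32851 start regions of this length hold that motif on either strand. In Cd55 they are GCGTG, a HIF core motif, read on the opposite strand from 46 to 42 bases before the start. That motif is in 28.2% of start regions. The second HIF core motif searched, ACGTG, is in 16.6% of regions, an interferon response motif of GAAA repeated after any 2 bases in 2.98%, the STAT motif TTCNNNGAA in 7.02% and the NF-κB motif in 3.9%. None of these was found in the start regions of C3, Cd55, C1ra or Cfd, the 4 of 9 genes in the table, and C1ra and Cfd held none of the 6 motifs. For C1ra the GENCODE annotation places a start inside this window.

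Among the 9 genes, 5 rose in HIF2 colon, 1 fell, 2 did not pass the test and 1 was too low to test. C1ra, C3, C4b, Serping1 and Cd55 rose, C2 fell, and Cfb and Cfd had group means that did not differ past the threshold. The test was limma on log2(FPKM + 1) over the 13976 genes with a mean of at least 1 FPKM, called at an adjusted p under 0.05. Of all tested genes, 11% were higher by this rule and 11.1% were lower. C4b passed the filter only through HIF2, where its level was high. Among the 7 genes with a mean of at least 1 FPKM in both groups, 4 rose and 1 fell. The median log2 difference of the 8 tested genes was 0.95, against -0.02 over all tested genes. Groups did not overlap for C1ra, as for 0.758% of all tested genes in that direction. Without HIF2 replicates 2 and 4 the same 5 genes rose and C2 fell, beside 10.6% and 11.2% of all tested genes. In HIF2 replicates 2 and 4 themselves, each of the 5 genes that rose lay above its WT maximum. There C3 was at 24.4 and 15.2 FPKM and Serping1 at 20.9 and 18.2 FPKM. With a replicate block the 8 calls were the same, beside 9.7% and 9.62%. With the filter at 5 FPKM, 5 of the genes could be tested and C3, Serping1 and Cd55 rose, beside 6.89% higher and 13.5% lower. In bulk tissue, more cells of a type and more RNA per cell cannot be told apart.

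**Figure D1:**
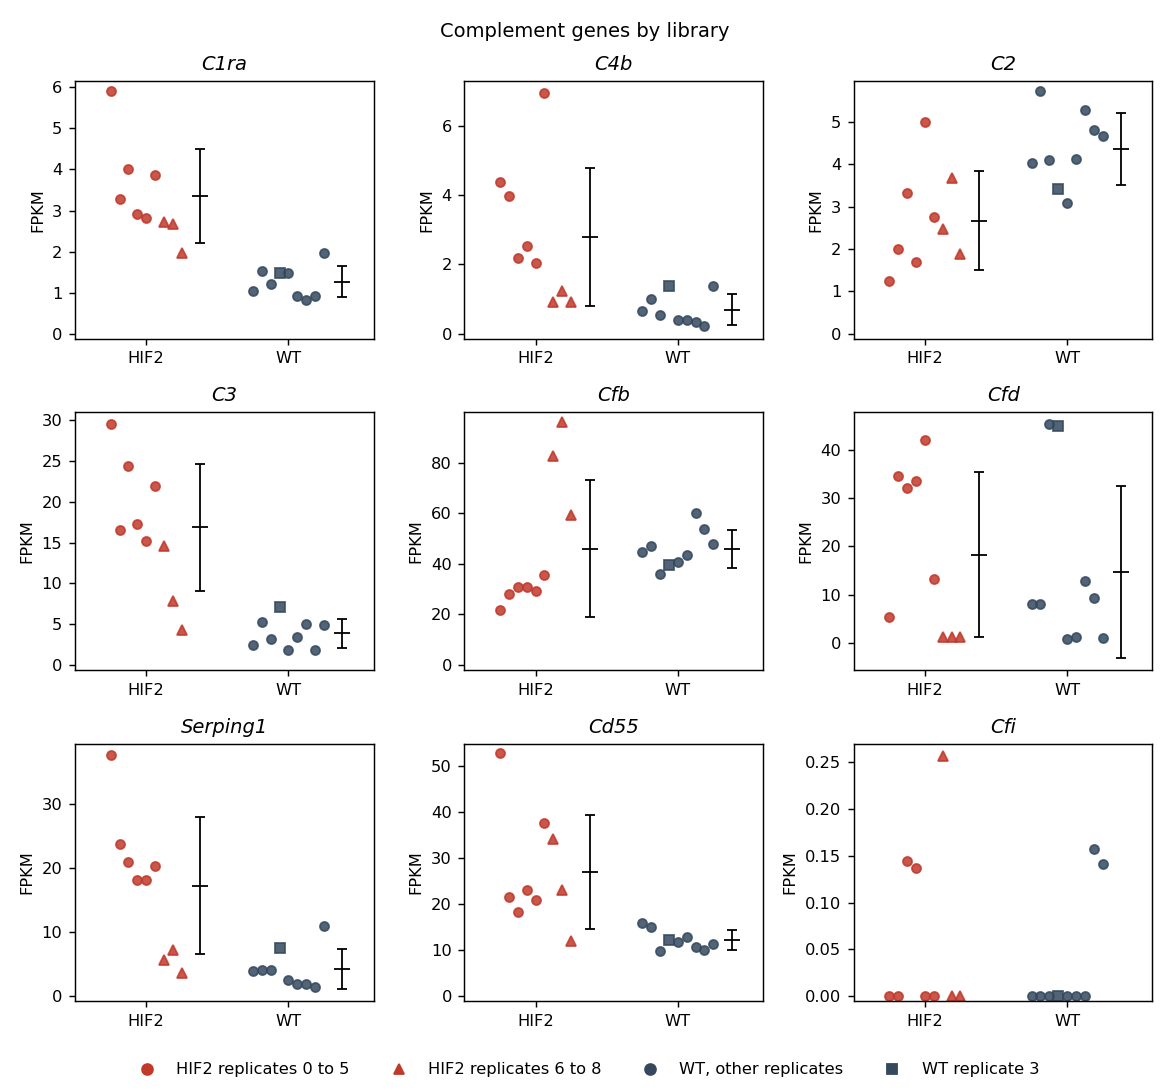
FPKM of each gene (vertical axes, linear) in every library, HIF2 on the left and WT on the right of each panel. Triangles are HIF2 replicates 6 to 8, squares are WT replicate 3, bars show the mean ± SD (n = 9 each; none for Cfi, which is at 0 in most libraries), and C1ra is the gene whose groups do not overlap.

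C1ra, which encodes a C1r protease of the classical pathway (chromosome 6, 124512405 to 124523443, GRCm38), rose in every HIF2 library. It was 1.97 FPKM at the lowest, 2.91 at the median and 5.90 at the highest in HIF2, against 0.818, 1.20 and 1.96 FPKM in WT. The 9 HIF2 libraries all lay above the WT maximum, with HIF2 replicate 8 just above WT replicate 8. HIF2 exceeded WT by 0.92 on the log2 scale (SE 0.14, limma adjusted p = 0.000264). The exact permutation p was 4.11e-05, the lowest value that 48620 splits allow. A near-identical copy, C1rb, shares 97.9% of bases over a 2431-base match. The C1rb row was listed at 0 FPKM in all HIF2 libraries and in 8 of 9 WT libraries, and reads that fit both copies could be counted under either.

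C4b, the gene of component C4, which C1s cleaves to form a C3-cleaving enzyme with C2 (chromosome 17, 34728380 to 34743882), also rose. It ran from 0.926 through a median of 2.19 to 6.96 FPKM in HIF2, against 0.226, 0.544 and 1.38 FPKM in WT. HIF2 replicates 0 to 5 lay above the WT maximum and replicates 6 to 8 within the WT range. HIF2 exceeded WT by 1.04 on the log2 scale (SE 0.26, limma adjusted p = 0.00675). The copy C4a shares 95.9% of bases over 5378 bases. It has 2 rows, 1 near 0 in both groups and 1 that averaged 0.598 FPKM in HIF2 and 0.548 FPKM in WT, so the split between C4b and C4a is uncertain.

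C2, the protease that joins C4 in that enzyme (chromosome 17, 34862604 to 34898265), fell in HIF2. It was 1.24 FPKM at the lowest, 2.46 at the median and 4.998 at the highest in HIF2, against 3.08, 4.13 and 5.73 FPKM in WT. Of the HIF2 libraries, 6 lay below the WT minimum and 1, replicate 4, lay above the WT median. The log2 difference was -0.59 (SE 0.16, limma adjusted p = 0.0131, exact permutation p = 0.00325), and -0.75 without HIF2 replicates 2 and 4 (limma adjusted p = 0.00152), which held 2 of the 3 highest C2 levels in HIF2. C2 overlaps the gene Zbtb12 on the opposite strand and the read-through gene Gm20547 on its own strand, and the library kit does not mark strand.

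C3, the protein on which all pathways converge (chromosome 17, 57203970 to 57228136), had the largest ratio of group means among the 8 tested genes, at 4.34. It was 4.29 FPKM at the lowest, 16.5 at the median and 29.6 at the highest in HIF2, against 1.79, 3.49 and 7.07 FPKM in WT. Only HIF2 replicate 8 lay inside the WT range. HIF2 exceeded WT by 1.80 on the log2 scale (SE 0.30, limma adjusted p = 0.000413). Its level in HIF2 replicates 6 and 7, 14.6 and 7.88 FPKM, was above that of every WT library, WT replicate 3 included.

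Cfb, factor B, the protease of the alternative pathway's C3-cleaving enzyme (chromosome 17, 34856374 to 34862518), lies beside C2, and both sit with C4b and C4a in a stretch of 169.9 kb. Its group means were nearly equal, 46 ± 27 FPKM in HIF2 and 45.9 ± 7.39 FPKM in WT (SD, n = 9 each). The equal means hid a split among HIF2 libraries. HIF2 replicates 0 to 5 ran from 21.6 to 35.5 FPKM, all below the WT minimum of 35.8 FPKM, while replicates 6, 7 and 8 were at 82.7, 96.1 and 59.4 FPKM, against a WT maximum of 59.9 FPKM. The log2 difference over all libraries was -0.17 (SE 0.24, limma adjusted p = 0.691). Cfb overlaps Gm20547 on the same strand.

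Cfd, factor D or adipsin, which cleaves factor B and is made mainly by fat cells (chromosome 10, 79890853 to 79892655), varied widely within each group. It was 1.31 FPKM at the lowest, 13.4 at the median and 42 at the highest in HIF2, against 0.804, 8.20 and 45.3 FPKM in WT. Both groups thus spanned nearly the same range. HIF2 replicates 6 to 8 were at 1.31 to 1.34 FPKM, and WT replicates 4, 5 and 8 were as low, at 0.804, 1.24 and 1.10 FPKM. The log2 difference was 0.36 (SE 0.80, limma adjusted p = 0.802), and -0.16 without HIF2 replicates 2 and 4, where Cfd was high. Adipocyte genes summed to 45.3 to 175 FPKM in HIF2 and 101.2 to 183 FPKM in WT. Of 10 tested, 0 were higher and 1 was lower in HIF2, Pck1, a gluconeogenesis gene that other cell types also express. Pck1 made up much of the sums. Without it the genes summed to 66.3 to 128 FPKM in HIF2 replicates 0 to 5, 20.5 to 35.7 FPKM in HIF2 replicates 6 to 8 and 21.6 to 108 FPKM in WT. Fabp4 made up much of these sums in HIF2 replicates 0 to 5, at 33.3 to 62.8 FPKM. In HIF2 replicate 0 it was at 61.2 FPKM, while Adipoq was at 0.907 FPKM and Cfd at 5.49 FPKM. Adipoq was at 2.55 to 9.21 FPKM in HIF2 replicates 1 to 5.

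Serping1, C1 inhibitor, which inactivates C1r and C1s (chromosome 2, 84765387 to 84775444), rose. It was 3.57 FPKM at the lowest, 18.2 at the median and 37.6 at the highest in HIF2, against 1.45, 3.88 and 11 FPKM in WT. HIF2 replicates 0 to 5 lay above the WT maximum, which was WT replicate 8, and replicates 6, 7 and 8 lay inside the WT range at 5.65, 7.14 and 3.57 FPKM. The log2 difference was 1.72 (SE 0.40, limma adjusted p = 0.00443). C1ra and its inhibitor gene were thus both higher in HIF2.

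Cd55, decay-accelerating factor, a membrane protein that dissociates the C3-cleaving enzymes on host cells (chromosome 1, 130439027 to 130462744), rose by 0.99 on the log2 scale (SE 0.20, limma adjusted p = 0.00211). It was 11.9 FPKM at the lowest, 23.1 at the median and 52.7 at the highest in HIF2, against 9.83, 11.7 and 15.8 FPKM in WT. Of the HIF2 libraries, 8 lay above the WT maximum, and HIF2 replicate 8 lay above the WT median. Its copy Cd55b, listed as Daf2, shares 91.6% of bases over 1157 bases and averaged 0.109 FPKM in HIF2 and 0.108 FPKM in WT. Cfi, factor I, the protease that degrades C3b and C4b with cofactors (chromosome 3, 129835884 to 129875332), was listed at 0 in 6 of 9 HIF2 and 7 of 9 WT libraries. Its highest value was 0.257 FPKM in HIF2 and 0.157 FPKM in WT, so a difference was not detectable.

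The order of levels differed between the groups. In HIF2 it ran from Cfb at 46 FPKM through Cd55 at 27, Cfd at 18.3, Serping1 at 17.3 and C3 at 16.9 to C1ra at 3.35, C4b at 2.79 and C2 at 2.67. In WT it ran from Cfb at 45.9 FPKM through Cfd at 14.7, Cd55 at 12.2, C2 at 4.36, Serping1 at 4.25 and C3 at 3.89 to C1ra at 1.26 and C4b at 0.698. Every pair of neighbours in these orders overlapped in range except Cd55 and C2 in WT, where the lowest Cd55 value was 9.83 FPKM and the highest C2 value 5.73 FPKM. C2 stood above C3, Serping1 and C1ra by mean in WT and below all of them in HIF2.

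C4b and Serping1 stood near the WT level in HIF2 replicates 6 to 8, which held little smooth muscle RNA and the highest Slc11a2 levels. Cfb changed direction between the sets of HIF2 libraries. The set of replicates 0 to 5 holds replicates 2 and 4, with Slc11a2 in the WT range. Which of these traits goes with the Cfb split was not tested. In HIF2 replicates 0 to 5 against the 9 WT libraries, 5 genes rose and 2, C2 and Cfb, fell, beside 12.4% and 13.4% of all tested genes. In HIF2 replicates 6 to 8 against the 8 WT libraries other than replicate 3, 2 rose and 1 fell, beside 8.99% and 10.1% of all tested genes. The 2 were C1ra, by 0.64 (limma adjusted p = 0.0156), and Cfb, by 0.74 (limma adjusted p = 0.00881), against -0.63 in HIF2 replicates 0 to 5 (limma adjusted p = 0.000815). C2 differed by -0.59 there (limma adjusted p = 0.033), the same size as over all libraries. C3 differed by 1.07 and Cd55 by 0.77, just short of the threshold (limma adjusted p = 0.0531 and 0.0539), C4b by 0.36 (limma adjusted p = 0.215) and Serping1 by 0.56 (limma adjusted p = 0.39).

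With the mean of the fibroblast list as a covariate, 0 of the 8 genes passed, beside 5.53% of all tested genes higher and 5.61% lower. Serping1 then differed by -0.23 (limma adjusted p = 0.641) and C4b by -0.01 (limma adjusted p = 0.987), while C3 differed by 0.67 (limma adjusted p = 0.229) and Cd55 by 0.71 (limma adjusted p = 0.165). C1ra differed by 0.41 (limma adjusted p = 0.137) and C2 by -0.54 (limma adjusted p = 0.203), with Cfb at 0.79 (limma adjusted p = 0.0702). With the smooth muscle list as the covariate, C1ra and C3 passed, at 0.64 and 1.03 (limma adjusted p = 0.0141 and 0.0246). Of all tested genes, 6.75% were higher and 7.26% lower in that fit. Both lists also differ between the genotypes, so list and genotype cannot be fully told apart, and the part of fibroblast or muscle RNA in these differences was not tested further.

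**Figure D2:**
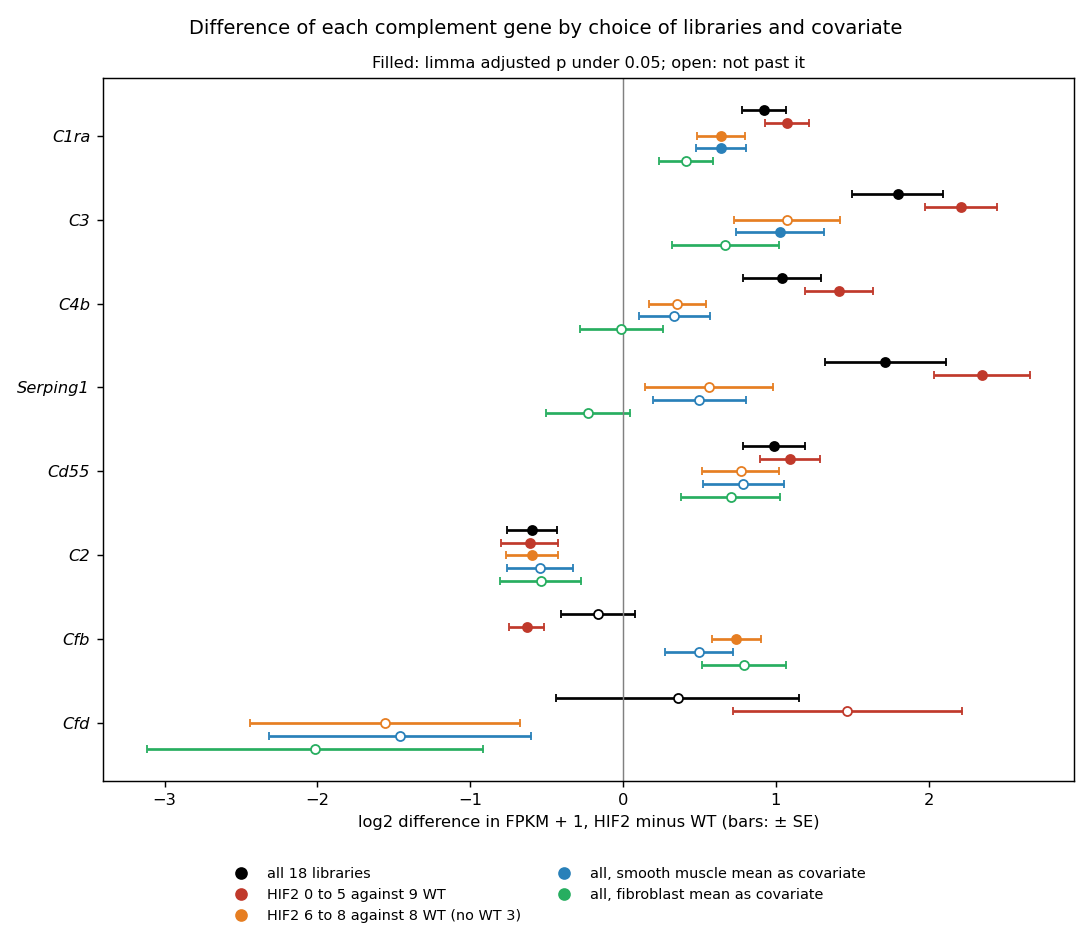
Log2 difference in FPKM + 1, HIF2 minus WT (horizontal axis, bars ± SE), of the 8 tested genes with all libraries, with 2 subsets of libraries and with 2 covariates. Filled points pass a limma adjusted p of 0.05; Cfb is lower with HIF2 replicates 0 to 5 and higher with HIF2 replicates 6 to 8, while C2 keeps nearly the same value throughout.

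Within the 5 HIF2 and 5 WT libraries with Ddx3y RNA, 5 genes rose and 1, Cfb, fell, by 0.52 on the log2 scale (limma adjusted p = 0.0279), beside 7.71% and 3.99% of all tested genes. C2 differed by -0.45 there (limma adjusted p = 0.302). Within the 4 HIF2 and 4 WT libraries with Xist RNA, 0 rose and 1, C2, fell, by 0.77 (limma adjusted p = 0.0493), beside 2.77% and 4.19% of all tested genes. In that set C1ra differed by 0.75 (limma adjusted p = 0.0508), C3 by 1.23 (limma adjusted p = 0.138) and Serping1 by 1.08 (limma adjusted p = 0.342). It holds HIF2 replicates 6 to 8 and only 1 other HIF2 library, so Xist and low smooth muscle RNA cannot be told apart within HIF2.

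The rest of the pathway was read from 6 lists of 51 other complement symbols, which matched 47 rows, 19 of them tested. Of these 19, 12 rose and 1 fell, beside 11% and 11.1% of all tested genes, with a median log2 difference of 1.12. Of the 13 with a mean of at least 1 FPKM in both groups, 7 rose and 1 fell. The 3 C1q chain genes rose together: C1qa averaged 18.9 FPKM in HIF2 and 4.999 FPKM in WT, with a log2 difference of 1.75 (SE 0.26, limma adjusted p = 0.00018), C1qc differed by 1.74 and C1qb by 1.74. C1s, the protease activated by C1r, averaged 4.05 FPKM in HIF2 and 0.908 FPKM in WT, a log2 difference of 1.33 (limma adjusted p = 0.000841). The collectin genes Colec12 and Colec10, named after their values were seen, were called higher too, and the Colec10 call was lost without HIF2 replicates 2 and 4 (limma adjusted p = 0.0852) and by the exact rank-sum test (adjusted p = 0.131). C1s, Colec12 and Colec10 passed the filter only through HIF2. Cfp, properdin, which stabilizes the alternative pathway enzyme, rose by 0.97 (limma adjusted p = 0.00274). Macrophage genes, a list without C1q, summed to 53.1 to 171 FPKM in HIF2 and 34.4 to 83 FPKM in WT, with 6 of 9 tested higher; their part in these differences was not tested.

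Among soluble regulators, Clu, clusterin, which blocks membrane attack, rose by 1.12 (limma adjusted p = 0.000752). Cpn1, the catalytic chain of carboxypeptidase N, which inactivates C3a and C5a, fell by 1.20 on the log2 scale, at 9.49 FPKM in HIF2 and 19.5 FPKM in WT (limma adjusted p = 0.0114). The Cpn1 call was lost with HIF2 replicates 0 to 5 (-0.86, limma adjusted p = 0.0512), and the Clu and C1s calls with HIF2 replicates 6 to 8 (0.69 and 0.54, limma adjusted p = 0.132 and 0.164) and with the fibroblast covariate (0.55 and 0.175, limma adjusted p = 0.215 and 0.586).

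Of the membrane regulators, Cd59a, which blocks membrane attack, was higher by 1.66 (limma adjusted p = 0.0149) and passed the filter only through HIF2. Its call was lost with a pseudocount of 0.01 (limma adjusted p = 0.13) and by the exact rank-sum test (adjusted p = 0.0632). Cr1l, or Crry, the rodent regulator of C3 deposition, was the most abundant complement gene measured here, at 61.9 ± 14.8 FPKM in HIF2 and 58.2 ± 12.2 FPKM in WT (SD, n = 9 each), and did not pass (log2 difference 0.08, SE 0.14, limma adjusted p = 0.737). It passed as higher with the smooth muscle covariate, at 0.46 (limma adjusted p = 0.0324), and with the fibroblast covariate, at 0.64 (limma adjusted p = 0.0179). It was named after its values were seen. Among receptor genes 3 were called higher: Itgam, a chain of complement receptor 3 that passed the filter only through HIF2, by 1.82 (limma adjusted p = 0.000528), Cd93 by 1.46 (limma adjusted p = 0.000973) and Itgb2, the partner chain of Itgam, by 0.71 (limma adjusted p = 0.0378). The Cd93 call was lost with the smooth muscle and fibroblast covariates (limma adjusted p = 0.0551 and 0.341). The Itgb2 call was lost with a replicate block (limma adjusted p = 0.0803) and without any 1 of 8 libraries, HIF2 replicates 1, 4 and 5 and WT replicates 0, 3, 4, 5 and 6 (limma adjusted p up to 0.0682). It was also lost with scaling to a fixed sum and with quantile normalization (limma adjusted p = 0.0672 and 0.0968). The same held with the smooth muscle and fibroblast covariates (limma adjusted p = 0.292 and 0.634). C3ar1, the C3a receptor, was below the filter, yet its lowest HIF2 value of 0.528 FPKM was above its highest WT value of 0.494 FPKM (exact permutation p = 4.11e-05, again the lowest possible). Groups were apart in that direction for 0.758% of all tested genes, and the share among genes below the filter was not counted. C3ar1 too was named after its values were seen. The terminal pathway genes C6, C7, C8a, C8b, C8g and C9 together summed to at most 2.23 FPKM in HIF2 and 1.87 FPKM in WT, and none passed the filter.

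**Figure D3:**
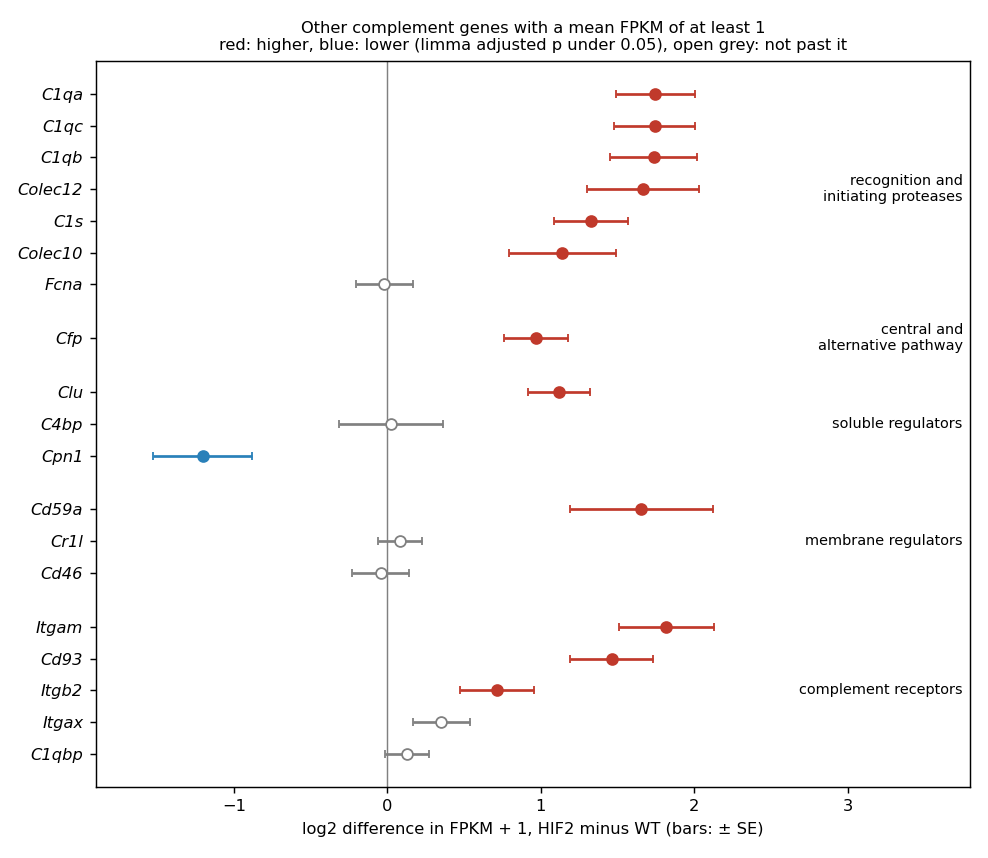
Log2 difference in FPKM + 1, HIF2 minus WT (horizontal axis, bars ± SE), of the 19 tested other complement genes, grouped by role. The 12 red points are higher and the blue point, Cpn1, is lower by limma at an adjusted p of 0.05.

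Likeness between genes was measured as Pearson's r of log2(FPKM + 1) over the 18 libraries after each group's mean was subtracted. The difference between the group means thus does not enter, but differences among HIF2 libraries do, those of replicates 2 and 4 included. These values are descriptions without a test, since each gene was picked for its likeness from 11889 candidates, and the points share library composition. Serping1 was most like Zcchc24 and Dennd5a, at r = 0.95 and 0.943. C1ra was most like the scavenger receptor gene Msr1 and Dab2, at 0.929 and 0.908. C4b was most like Vwf, the endothelial von Willebrand factor gene, at 0.937, and Nfic, at 0.926.

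C2 was most like Psmb9 and Psmb8, subunits of the interferon-inducible immunoproteasome, at r = 0.901 and 0.90. Without the 2 libraries farthest from the C2 median these values were 0.791 and 0.802. Psmb9 averaged 16 FPKM in HIF2 and 34.9 FPKM in WT. In HIF2 replicate 4, where C2 was highest within HIF2, Psmb9 was at 41 FPKM, above 7 of the 9 WT libraries. Interferon response genes, a list that holds both Psmb genes, were lower in HIF2 in 15 of 17 tested, beside 11.1% of all tested genes. They summed to 87.7 to 529 FPKM in HIF2 and 592 to 1017 FPKM in WT.

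Cfd was most like Car3 and the adiponectin gene Adipoq, both typical of fat cells, at r = 0.971 and 0.961. Within HIF2 alone the values were 0.968 and 0.97, and within WT alone 0.981 and 0.959. Adipoq was listed at 0 FPKM in HIF2 replicates 7 and 8 and in WT replicate 4, libraries in which Cfd was at 1.31, 1.34 and 0.804 FPKM. Cfb was most like the zinc transporter gene Slc39a5 and the selenoprotein P gene Sepp1, at 0.948 and 0.945, and r with Slc39a5 was 0.983 within HIF2 and 0.545 within WT. C3 was like Pitpnb, at 0.89, and Cd55 like Ccr1 and Trib1, at 0.873 and 0.848. The Cd55 values dropped to 0.672 and 0.55 without the 2 libraries farthest from its median.

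Among the 8 genes themselves, C1ra, C3, C4b and Serping1 varied together, with r between 0.707 and 0.844 for the 6 pairs. Within HIF2 these pairs ran from 0.706 to 0.878. Within WT they ran from 0.355, for C1ra and C3, to 0.946, for C4b and Serping1, with C3 and Serping1 at 0.586. Cfb ran against all 4 of these genes, with r between -0.745 and -0.55, at -0.89 to -0.661 within HIF2 and -0.375 to 0.033 within WT. C2 stood apart from these 4, with r between -0.264 and -0.016, and its r with its neighbour Cfb was 0.308, at 0.256 within HIF2 and 0.684 within WT.

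**Figure D4:**
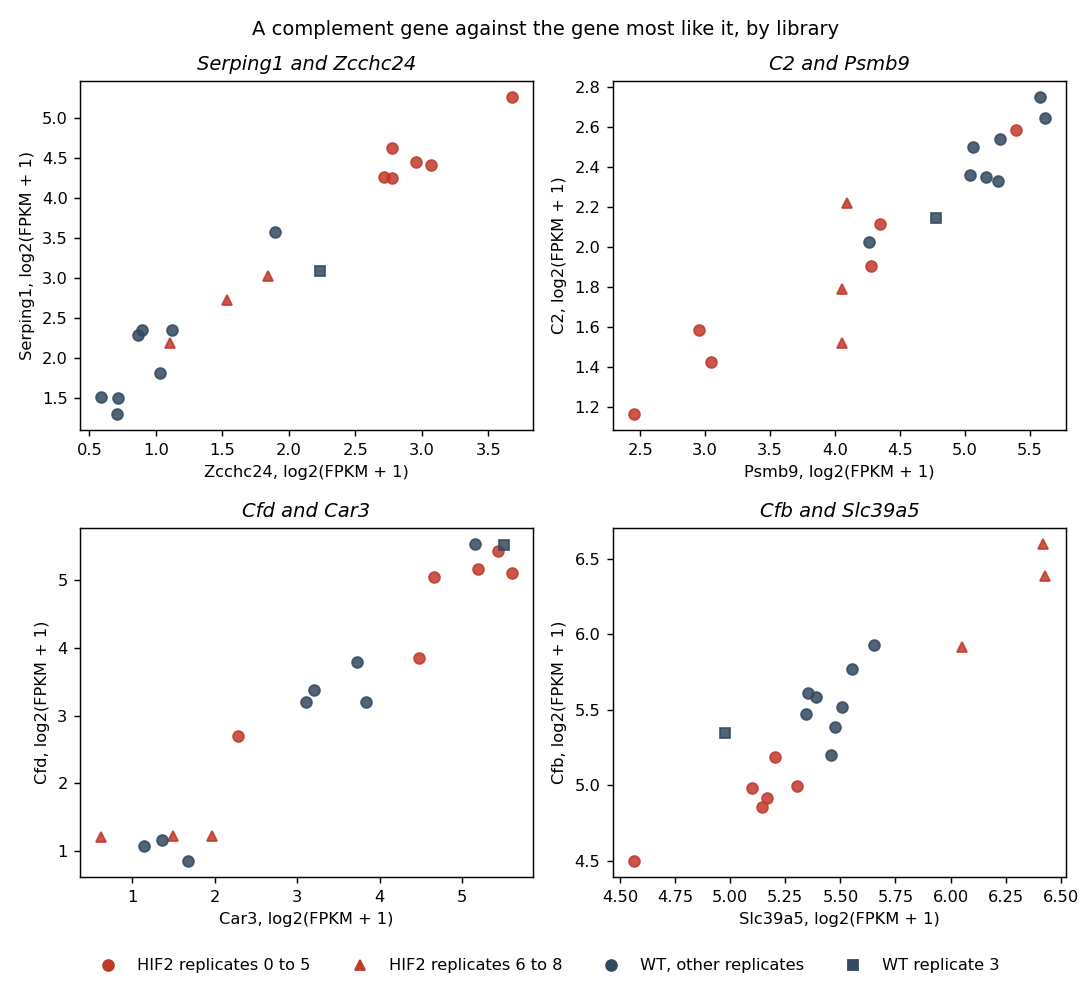
Serping1, C2, Cfd and Cfb (vertical axes) against the gene most like each (horizontal axes), all as log2(FPKM + 1), with 1 point per library. Red is HIF2 with triangles for replicates 6 to 8, and dark grey is WT with a square for replicate 3; Cfd follows Car3 across both groups, and the triangles hold the 3 highest Slc39a5 levels beside high Cfb.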

How the data were processed

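Polyadenylated RNA of colon tissue was sequenced with TruSeq RNA v2 libraries, per the labels' protocols. The authors deposited FPKM, 1 column per library. Cuffdiff 2.1.1, Cufflinks, TopHat, TopHat2 2.0.9, Bowtie2 2.1.0.0, FastQC and the build mm10 appear in the submitters' processing notes, without roles. No source used here gives depth, strand setting or annotation. Steps between low values, taken relative to WT replicate 0, clustered at 1 to 1.39 by library, so relative depth may differ by about that much. Equal values above 0 were most frequent between HIF2 replicates 1 and 2 (285 of 13976 genes), HIF2 replicates 6 and 8 (281, C4b among them) and, across genotypes, HIF2 replicate 3 and WT replicate 2 (217). These pairs correlated at 0.893, 0.914 and 0.849, and none were treated as duplicates.

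Values were analysed as log2(FPKM + 1) with limma 3.58.1 in R 4.3.3 (trended prior, 2-sided, Benjamini-Hochberg over 13976 genes with a mean of at least 1 FPKM), HIF2 minus WT. Fold changes on this scale understate those of low genes. Single genes also had an exact permutation test over 48620 splits. The fit was tested on simulated data. Other settings were pseudocounts 0.1 and 0.01, a 5 FPKM filter or none, 3 scalings, a replicate block, array weights, a robust prior, an exact rank-sum test, covariates and each library left out. The adipocyte covariate and the subsets of libraries were chosen after seeing the data. The genes and lists were chosen with earlier results of these data known. Named were all 9 genes, up to 4 called genes per direction from each list of other complement genes, copies, and the 2 genes most like each. Coordinates are 1-based, from GENCODE M21 on GRCm38, which mm10 denotes. Start regions are from RefSeq, GRCm38.p6. Copies were compared with blastn on the longest transcripts. Figures were drawn with matplotlib 3.10.9. Some genes are not reported here, and the counts of other complement genes leave them out.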

Additional observations from a re-analysis of the deposited data

Results flagged for a closer look

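Groups of 9 libraries were examined for 1 library far from the others in 44 gene and group combinations, and 6 stood out, where chance flags about 1 in 20. All 6 are genes of the wider pathway. Cd93 and Itgb2 were at 16.3 and 7.21 FPKM in HIF2 replicate 0, with the next HIF2 library at 5.97 and 2.96 FPKM. C1qa, C1qb and C1qc were at 12, 11.4 and 10.3 FPKM in WT replicate 8, with the next WT library at 5.87, 5.72 and 5.44 FPKM. Colec10 was at 1.44 FPKM in WT replicate 3, with the next WT library at 0.302 FPKM. Without the library that stood apart, each of these 6 genes was still higher in HIF2 (limma adjusted p at most 0.046).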

How the results depend on the processing

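Counts stayed at 5 complement genes higher and 1 lower under both pseudocounts, no filter, the 3 scalings, array weights, the robust prior, the rank-sum test, the replicate block, the Ddx3y and Xist covariate and the adipocyte covariate, without HIF2 replicates 2 and 4, and when each library was left out. Left-out libraries gave 11 to 12 other complement genes higher and 1 lower, and 1333 to 1653 and 1343 to 1662 of all genes. Replicate numbers did not pair the libraries: deviations from the group means correlated at -0.033 to 0.112 over 9 pairs, and 1 HIF2 library was closest to its own number. With the replicate block 1355 of all genes were higher and 1345 lower, against 1531 and 1557, and no call of the 8 genes changed. With the filter at 5 FPKM, which leaves out C1ra, C4b and C2, 3 complement genes were higher and 0 lower, with 4 other complement genes and 640 of all genes higher. Without a filter 2 other complement genes were lower, and 2407 of all genes were higher.

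The smooth muscle covariate gave 2 complement genes higher and 0 lower, 7 other complement genes higher, and 943 and 1015 of all genes, with Cfb at 0.499, Cfd at -1.46 and Colec10 at -0.051. The fibroblast covariate gave 0 and 0, 2 other complement genes higher, and 773 and 784 of all genes. With it C4b was at -0.011, Cfb at 0.792, Cfd at -2.02, Serping1 at -0.228, Colec10 at -0.46, Colec12 at -0.15 and Cd59a at -0.627. The adipocyte covariate put Cfd at -0.12, and leaving out HIF2 replicates 2 and 4 put it at -0.156. In HIF2 replicates 0 to 5, 2 complement genes and 0 other complement genes were lower, and Cr1l was at -0.105. In HIF2 replicates 6 to 8, 2 complement genes and 5 other complement genes were higher, with Cfb at 0.742, Cfd at -1.56 and Colec10 at -0.023. With Xist RNA 0 complement genes were higher, 1 other complement gene was higher and 0 were lower, 387 and 585 of all genes were higher and lower, and Cfb was at 0.279 and Cfd at -0.16. With Ddx3y RNA 0 other complement genes and 557 of all genes were lower, and Cr1l was at -0.008. The subsets hold fewer libraries; otherwise the cause was not tested.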

Other observations

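Marker lists of other cell types, by limma at an adjusted p under 0.05, gave the following counts beside those in the report. Of all tested genes, 11% were higher and 11.1% lower. Which marker genes passed the filter only through HIF2 was not counted for any of these lists. Endothelial genes were higher in HIF2 in 8 of 8 tested, enteric neuron and glia genes in 3 of 3 and mesothelial genes in 3 of 5. Colonic epithelium genes were lower in 6 of 11 and higher in 0. Hepatocyte genes, of the organ that makes most plasma complement, were lower in 1 of 5 and summed to 24.2 to 69.7 FPKM in HIF2 and 46.4 to 169 FPKM in WT. T cell genes changed in 0 of 2 and neutrophil genes in 0 of 4, and B and plasma cell genes were lower in 1 of 4. The neutrophil genes summed to 846 FPKM in HIF2 replicate 0, the highest library, which also had the highest C3, Serping1, C1ra and Cd55 levels. Of 13 acute phase and NF-κB response genes, 2 were higher and 0 lower. After group means were subtracted, the genes that rose had r of 0.91 (Serping1), 0.79 (C4b), 0.72 (C1ra), 0.706 (C3) and 0.257 (Cd55) with the fibroblast list over 18 libraries, given as descriptions. With the endothelial list r was 0.869, 0.783, 0.876, 0.669 and 0.536 in the same order, and with the macrophage list 0.815, 0.794, 0.771, 0.621 and 0.524. The smooth muscle list gave 0.828, 0.767, 0.575, 0.698 and 0.266, and the enteric neuron and glia list 0.806, 0.62, 0.674, 0.757 and 0.417. For Cd55 the highest r was with the neutrophil list, at 0.665. These values thus do not single out 1 cell type. Cfb ran against the fibroblast list at -0.735, and likewise against the enteric neuron and glia, smooth muscle and endothelial lists, at -0.834, -0.741 and -0.726. With the hepatocyte list its r was positive, at 0.682.

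Hc, the gene of component C5, was below the filter, at 0.11 FPKM in HIF2 and 0.263 FPKM in WT, and was lower without the filter (limma adjusted p = 0.0137). The gene was named after its values were seen.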
